A study of Mus musculus with 60 samples.

Results

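The T cell receptor (TCR) repertoire of donor CD4 T cells that lacked both STAT3 and PD-1 was compared with that of wild-type (WT) donor CD4 T cells in mice undergoing graft-versus-host disease (GVHD), in which donor T cells injure the recipient's organs. The comparison held 16 of the 60 samples of the series, chosen by their labels: 8 from STAT3koPD-1ko and 8 from WT donors, each taken on day 6 after hematopoietic cell transplantation (HCT). Each group had liver number 1, liver number 2, gut number 1 and gut number 2, once sequenced for the TCR alpha chain (TCRA) and once for the TCR beta chain (TCRB), so each chain gave 4 pairs matched for tissue and number. Both chains were read from the same RNA samples and were not independent tests of the genotype. The day 6 samples of STAT3ko donors were fitted together with these and so enter the estimate of spread and of the tissue and number blocks. The spleen samples titled naive whose time is given as before HCT, 1 per genotype and chain, entered no test.

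All donors were C57BL/6 mice and all recipients were lethally irradiated WT BALB/c mice, a strain with another major histocompatibility complex haplotype. Every recipient also received T cell-depleted bone marrow from WT C57BL/6 donors, and the CD90.2+ donor T cells were WT, STAT3-/- or STAT3-/-PD-1-/-. In the study's mice, Stat3 fl/fl was deleted by CD4-Cre, which acts in developing T cells, whereas the PD-1 deletion was carried in the germline. No group lacked PD-1 alone, so what PD-1 contributed without the loss of STAT3 cannot be told apart. Donor cells were sorted as H-2Kb+TCRβ+CD4+, and a day 6 sample pooled lymphocytes of 3 recipients. The tables hold no expression values, so CD4 and the lost genes could not be checked in the libraries.

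STAT3 is a transcription factor downstream of several cytokine receptors, and PD-1 is an inhibitory receptor of activated T cells. An αβ T cell assembles its receptor in the thymus. The beta chain joins a V, a D and a J segment, and the alpha chain joins a V (TRAV) to a J (TRAJ) segment. The junction encodes the third complementarity determining region (CDR3), where clones differ most from each other. At the alpha locus a thymocyte can rearrange repeatedly. A first join tends to use the J segments nearest to the V segments, and each later join replaces it with a more distant V and a J nearer to the constant segment TRAC, until the cell is selected or dies. The position of the TRAJ in the array therefore records how far rearrangement went.

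Each value gave the share of a library's reads that a clonotype took, a clonotype being defined by CDR3 protein sequence, V and J. Only clonotypes found in at least 2 libraries were listed. The tables held 62533 TCRA and 85775 TCRB clonotypes. The listed share ranged from 81.6% to 97.6% of reads in the 8 TCRA libraries and from 47.8% to 92.6% in the 8 TCRB libraries, and it was lowest in gut number 2 of both genotypes. The depth is unknown. Fewer cells of a clone and less receptor RNA per cell cannot be told apart in such fractions. Libraries of a genotype also shared clonotypes to unequal degrees. Overlap was measured by taking, for each clonotype, the lower of its percentages in 2 libraries and adding these up. It was 23.1% and 23.5% in TCRB between STAT3koPD-1ko gut number 1 and the 2 liver libraries of that genotype, but 7.0% between those liver libraries. The WT values were 37.4% and 29.8% against 11.1%. The library labelled before HCT overlapped with liver number 1 of its genotype by 55.0% (STAT3koPD-1ko) and 43.2% (WT) in TCRB, against 4.05% to 22.8% with the other 3 day 6 libraries of its genotype. The 4 pairs and the before-HCT libraries were therefore not fully independent. The calls of TRAJ segments, residues and TCRB lengths are also given without gut number 1, as are the effective number of clonotypes and the superantigen and iNKT shares.

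Among the features tested, the TRAJ segments gave the most calls between the genotypes. Percentages of listed frequency were tested with limma on log2(percent + 0.1) in the 12 day 6 libraries with a block for tissue and number, and adjusted by the Benjamini-Hochberg method. Of 40 TRAJ with a mean usage of at least 0.5%, 9 passed at an adjusted p under 0.05, which is 22.5% of those tested, 5 higher and 4 lower in STAT3koPD-1ko. The 5 that rose, TRAJ58, TRAJ57, TRAJ56, TRAJ53 and TRAJ48, lay 50.7 to 63.2 kb before TRAC, at the V side of the array. The 4 that fell, TRAJ13, TRAJ12, TRAJ9 and TRAJ7, lay 9.05 to 14.8 kb before TRAC. Without gut number 1 of all 3 genotypes, TRAJ56 and TRAJ53 alone passed (limma adjusted p = 0.0305 for both), and all 9 kept their direction under each of 18 alternatives run for each segment, though not their size. With each clonotype counted once, so that expanded clones had no extra weight, the log2 changes were 0.15 for TRAJ56 and TRAJ53, 0.22 for TRAJ57, 0.28 for TRAJ58, −0.19 for TRAJ9, −0.21 for TRAJ7 and −0.17 for TRAJ12, which passed, and 0.04 for TRAJ48 and −0.11 for TRAJ13, which did not.

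The germline sequences of these 9 segments are shown because they are the ones that passed the test. They are the GENCODE M21 transcripts, on the plus strand of chromosome 14 in the mouse build GRCm38 (mm10), 5′ to 3′, with the 4 codons of the conserved motif at the end of the CDR3 in capitals (phenylalanine, or leucine in TRAJ7, then glycine, any residue and glycine). The annotated spans of TRAJ57 and TRAJ48 are longer than their transcripts by 2 bases and 1 base. The first 5 sequences were used more in STAT3koPD-1ko and the last 4 less.
TRAJ58, chr14:54157280-54157342: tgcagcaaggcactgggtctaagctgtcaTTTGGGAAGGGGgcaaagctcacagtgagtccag
TRAJ57, chr14:54158505-54158569: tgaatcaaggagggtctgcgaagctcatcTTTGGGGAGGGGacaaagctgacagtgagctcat
TRAJ56, chr14:54159263-54159325: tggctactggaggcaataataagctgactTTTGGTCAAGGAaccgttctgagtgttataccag
TRAJ53, chr14:54162644-54162709: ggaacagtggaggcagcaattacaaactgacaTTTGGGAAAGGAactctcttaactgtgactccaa
TRAJ48, chr14:54169808-54169868: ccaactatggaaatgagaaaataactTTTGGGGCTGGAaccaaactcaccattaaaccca
TRAJ13, chr14:54205741-54205797: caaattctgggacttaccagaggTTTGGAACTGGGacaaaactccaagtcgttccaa
TRAJ12, chr14:54206553-54206610: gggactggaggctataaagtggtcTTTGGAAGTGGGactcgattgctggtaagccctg
TRAJ9, chr14:54209393-54209450: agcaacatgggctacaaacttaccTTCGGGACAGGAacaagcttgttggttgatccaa
TRAJ7, chr14:54211470-54211528: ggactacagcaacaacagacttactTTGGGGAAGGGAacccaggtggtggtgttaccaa

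TRAJ56, which encodes the CDR3 ending ATGGNNKLTF, made up 2.72%, 2.70%, 3.71% and 2.77% of the STAT3koPD-1ko liver 1, liver 2, gut 1 and gut 2 libraries. The WT values, in the same order, were 1.78%, 1.70%, 1.89% and 2.19%. Each STAT3koPD-1ko value lay above each WT value, with a mean of 2.98% ± 0.493 against 1.89% ± 0.217 (SD, n = 4 each) and a log2 change of 0.62 (SE 0.107, limma adjusted p = 0.00260). The highest library, gut 1, held a single clonotype with TRAJ56 at 0.743%, and without the most frequent TRAJ56 clonotype of every library the groups were still apart, at 2.52% to 2.97% against 1.63% to 2.09%. TRAJ56 was spread over 172 to 657 listed clonotypes in each of the 8 libraries.

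TRAJ53 was at 1.86%, 1.75%, 1.61% and 1.56% in STAT3koPD-1ko and at 1.19%, 1.18%, 1.22% and 1.17% in WT. The WT libraries differed by little and lay below all STAT3koPD-1ko libraries (log2 change 0.48, SE 0.0915, limma adjusted p = 0.00362, higher in 4 of 4 pairs). TRAJ57 was at 2.62%, 2.49%, 2.27% and 2.26% in STAT3koPD-1ko against 1.64%, 1.83%, 1.58% and 1.95% in WT, with no overlap (log2 change 0.44, SE 0.0949, adjusted p = 0.00617). TRAJ58, the TRAJ of the tested set nearest to the V segments, was at 1.21%, 1.19%, 1.22% and 1.11% against 0.834%, 0.840%, 0.779% and 0.915% (log2 change 0.44, SE 0.102, adjusted p = 0.00793). For TRAJ57 and TRAJ58 as well, the lowest STAT3koPD-1ko library was above the highest WT library. TRAJ48 rose in 3 of 4 pairs, from 1.36% ± 0.0765 to 1.96% ± 0.483 (log2 change 0.46, SE 0.137, adjusted p = 0.0250), and was lower than WT in gut 2, at 1.26% against 1.47%.

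Among the segments near TRAC, TRAJ9 was at 2.44%, 3.09%, 2.17% and 2.27% in STAT3koPD-1ko against 3.17%, 3.53%, 3.45% and 3.08% in WT. It was lower in 4 of 4 pairs although the groups overlapped slightly (log2 change −0.41, SE 0.101, limma adjusted p = 0.0125). TRAJ13 was at 1.82%, 2.52%, 2.34% and 2.14% against 3.05%, 2.82%, 2.93% and 2.88%, with no overlap (log2 change −0.40, SE 0.117, adjusted p = 0.0250). TRAJ12 fell in 4 of 4 pairs, from 3.48% ± 0.407 to 2.75% ± 0.335 (adjusted p = 0.0317), and TRAJ7 in 3 of 4, from 1.76% ± 0.253 to 1.34% ± 0.426 (adjusted p = 0.0250). In gut 2, TRAJ7 was instead higher in STAT3koPD-1ko, at 1.94% against 1.85%. Over the 40 TRAJ, 8 had groups that did not overlap, or 20% of those tested. The other 3 beside the 5 named so far were TRAJ52 (higher), TRAJ27 and TRAJ18 (both lower), none of which passed the test.

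**Figure D1:**
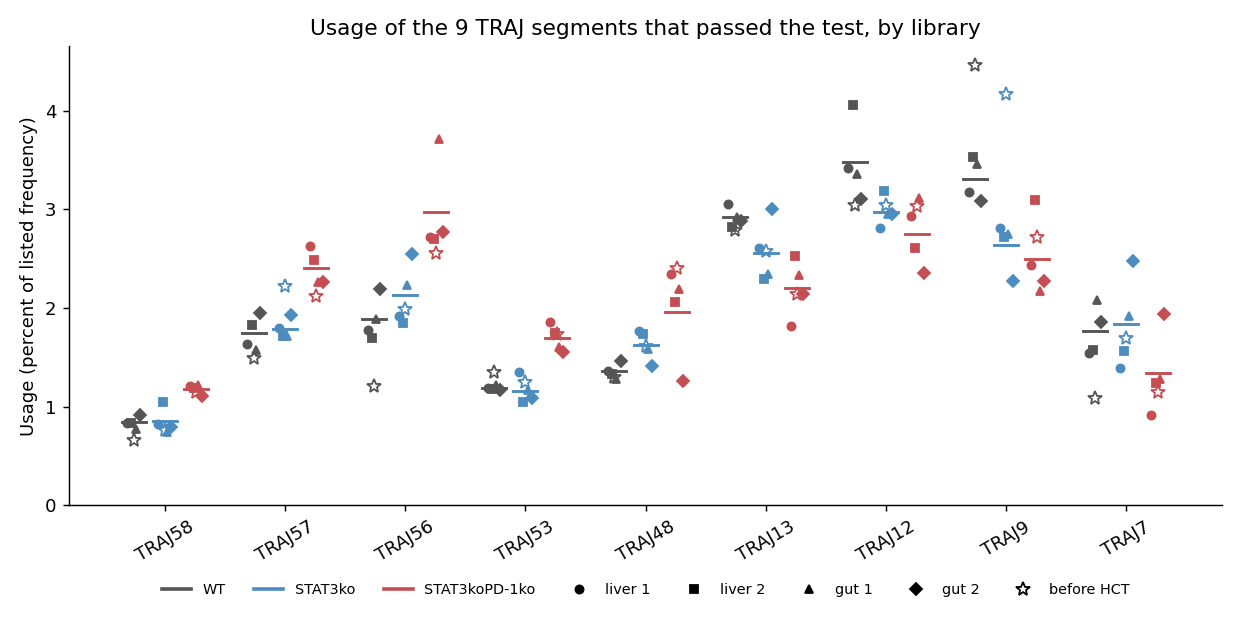
Usage of the 9 TRAJ segments that passed the test, in percent of listed frequency (y axis), for each CD4 TCRA library; colours give the genotype, symbols the tissue and number, bars the mean of 4 day 6 libraries and stars the single library before HCT. The 4 STAT3koPD-1ko libraries lie above the WT libraries for TRAJ58, TRAJ57, TRAJ56 and TRAJ53, and below them for TRAJ13.

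The change followed the order of the array over the 40 tested segments, the called ones included. The tested TRAJ were split at the middle of the distance they span, 33.7 kb before TRAC, a split chosen after the values were seen and given without a test. Of the 20 TRAJ on the V side, 18 had a log2 change above 0, with a median of 0.18, and 5 were called higher and 0 lower. Of the 20 on the TRAC side, 19 had a log2 change below 0, with a median of −0.20, and 0 were called higher and 4 lower. The median over all 40 was −0.01. Across the 40 segments, which share the same libraries and whose percentages sum to a fixed total, the log2 change and the distance from TRAC had a Pearson's r of 0.88 and a Spearman's rho of 0.88. Within single pairs, r was 0.80 in liver 1, 0.68 in liver 2, 0.76 in gut 1 and 0.42 in gut 2.

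**Figure D2:**
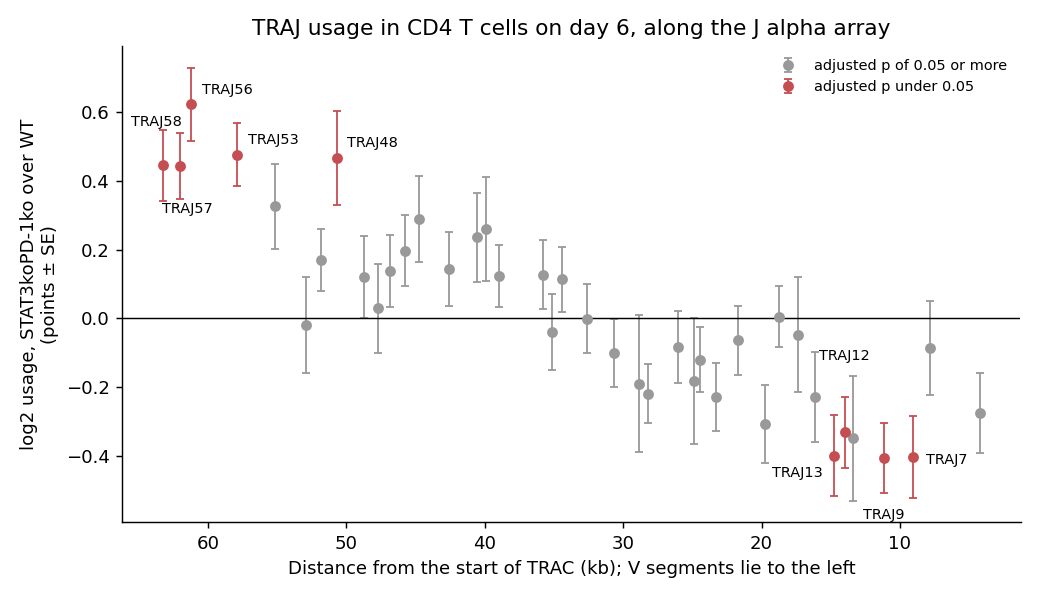
The log2 change of usage in STAT3koPD-1ko over WT (points, with SE) for the 40 tested TRAJ, plotted by their distance from the start of TRAC in kb; segments with an adjusted p under 0.05 are red. The called segments are at 0.44 to 0.62 on the V side and at −0.41 to −0.33 between 9.05 and 14.8 kb; the tested segments nearest to TRAC, TRAJ6 and TRAJ4, are at −0.09 and −0.27.

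The same shift was seen as 1 value per library, the mean distance of the TRAJ from TRAC weighted by usage. It was 34.0, 32.7, 33.3 and 32.4 kb in the STAT3koPD-1ko liver 1, liver 2, gut 1 and gut 2 libraries, and 30.7, 30.8, 30.5 and 30.9 kb in WT. The STAT3koPD-1ko libraries were thus all farther from TRAC than the WT libraries, by 3.29, 1.92, 2.71 and 1.53 kb within pairs. With each listed clonotype counted once the differences were 2.00, 0.957, 1.41 and 0.520 kb. The V side of that split held 46.0% ± 2.51 of the listed frequency in STAT3koPD-1ko and 39.0% ± 0.493 in WT (SD, n = 4 each). These measures were formed after the segments had been tested and have no test of their own.

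The libraries of STAT3ko donors, which were in the same fit, lay between the other groups. Their mean distance was 32.0, 31.3, 31.7 and 31.2 kb, above WT and below STAT3koPD-1ko in each of the 4 blocks. With each clonotype counted once, STAT3ko was not above WT in gut 2, at 32.34 against 32.36 kb, and between the other groups in the other 3 blocks. No TRAJ passed the test between STAT3ko and WT (0 of 40, 0% of those tested), whereas 6 of 40 (15%) passed between STAT3koPD-1ko and STAT3ko. These were TRAJ56, TRAJ53, TRAJ57 and TRAJ58, which were higher in STAT3koPD-1ko by 0.46, 0.51, 0.41 and 0.43 on the log2 scale (limma adjusted p = 0.00946, 0.00388, 0.00946 and 0.00946), and TRAJ7 and TRAJ18, which were lower by −0.44 and −0.41 (adjusted p = 0.0202 for both). The comparisons share libraries and are not independent. For TRAJ9 the STAT3ko change from WT was −0.32 (adjusted p = 0.314) and that of STAT3koPD-1ko from STAT3ko −0.09 (adjusted p = 0.606).

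In the libraries labelled before HCT, 1 for each genotype, the mean distance was 33.6 kb in STAT3koPD-1ko, 31.5 kb in STAT3ko and 30.02 kb in WT. TRAJ56 was at 2.56% in STAT3koPD-1ko against 1.21% in WT, and TRAJ58 at 1.15% against 0.665%. TRAJ9 was at 2.72% against 4.46%. These spleen libraries thus differed in the same direction for the 3 segments, with 1 library a group and no replicate check. Of the 20 V-side segments, 16 were higher in that STAT3koPD-1ko library, as were 7 of the 20 on the TRAC side, and r with the distance was 0.72. TRAJ7 and TRAJ12 hardly differed there, at 1.15% against 1.09% and 3.03% against 3.05%. The overlap of these libraries with liver number 1 was given above. Without liver number 1 of all genotypes, 6 of 40 TRAJ passed in the day 6 libraries, 5 of them among the 9.

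**Figure D3:**
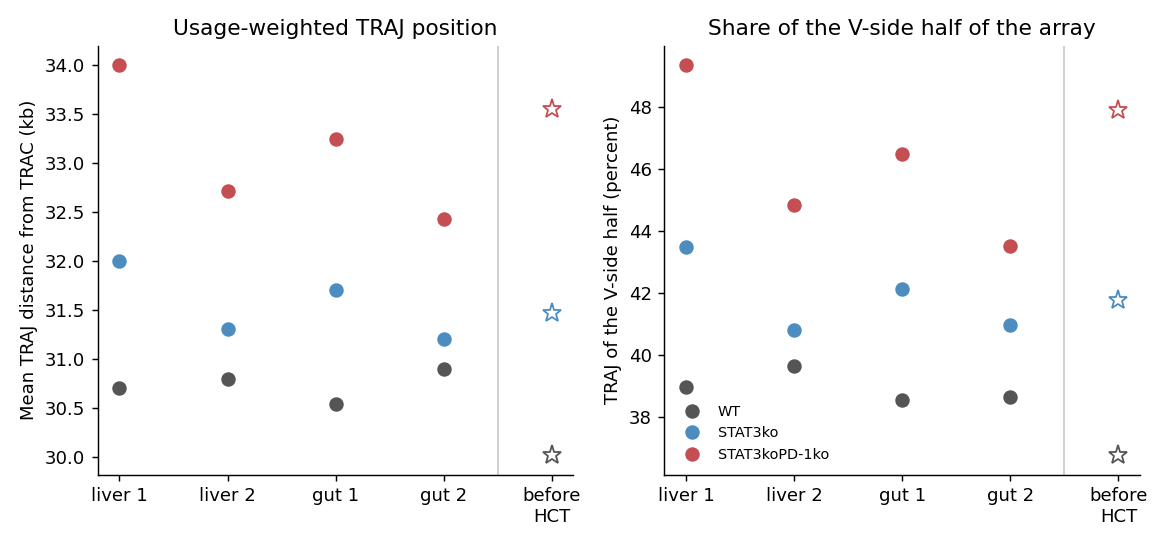
Left, the usage-weighted mean distance of the TRAJ from TRAC (kb); right, the percentage of listed frequency with a TRAJ on the V side of the middle of the array; each point is 1 CD4 TCRA library, with stars for those before HCT. In each of the 5 columns STAT3koPD-1ko is highest, STAT3ko lies between and WT is lowest; the y axes do not start at 0.

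No TRAV segment passed the test. Of 46 TRAV tested, 0 passed adjustment in limma (0% of those tested), with 4 at an unadjusted p under 0.05. The 3 tested TRAV nearest to the J array, TRAV17, TRAV19 and TRAV21/DV12, were among these 4, a choice made after the values were seen. TRAV21/DV12, the nearest at 344.5 kb from TRAC (chr14:53875984-53876752), was at 2.78%, 2.09%, 1.82% and 1.16% in STAT3koPD-1ko against 1.63%, 1.45%, 1.09% and 1.30% in WT, higher in 3 of 4 pairs (log2 change 0.45, SE 0.149, adjusted p = 0.216). With each clonotype counted once its log2 change was −0.17. TRAV19 was at 1.89%, 1.92%, 2.21% and 3.14% against 1.56%, 1.75%, 1.63% and 2.00%, and TRAV17 was also higher in 4 of 4 pairs, at 0.867% ± 0.254 against 0.649% ± 0.125. Their log2 changes were 0.36 and 0.34 (adjusted p = 0.335 and 0.356). The 2 remaining TRAV with the largest changes of one direction in all pairs were TRAV4N-4 (−0.22, adjusted p = 0.733) and TRAV14-3 (0.17, adjusted p = 0.797). TRAV copies of the duplicated part of the locus are near-identical, so reads may be split between them.

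The shift in TRAJ was also seen within most TRAV. Within the clonotypes of a given TRAV, the mean TRAJ distance was greater in STAT3koPD-1ko for 42 of the 46, by a median of 1.51 kb, and 14 of these differed so in 4 of 4 pairs, against 0 in the other direction. The differences ranged from −1.76 to 4.52 kb. The 3 TRAV nearest to the J array joined distant TRAJ in both genotypes, with mean distances of 54.6, 53.9 and 50.8 kb in STAT3koPD-1ko and 54.3, 53.4 and 50.7 kb in WT for TRAV21/DV12, TRAV19 and TRAV17.

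Pairs of V and J were also tested one by one. In TCRA, 0 of 76 pairs passed (0%; 8 at an unadjusted p under 0.05 in limma). The largest change in all 4 pairs was that of TRAV10N with TRAJ43, at 0.598%, 0.641%, 0.409% and 0.330% in STAT3koPD-1ko against 0.198%, 0.205%, 0.253% and 0.174% in WT. The groups did not overlap, but the adjusted p was 0.0583 (log2 change 0.92, SE 0.235). TRAV10 with TRAJ9 was at 0.115% ± 0.0412 against 0.262% ± 0.0776 (log2 change −0.75, adjusted p = 0.0909), TRAV7-4 with TRAJ37 had a log2 change of −0.54 (adjusted p = 0.466) and TRAV14-3 with TRAJ57 one of 0.50 (adjusted p = 0.417).

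The beta chain showed no J or V segment past the threshold. Of 12 TRBJ, 0 passed in limma (0%; 1 at an unadjusted p under 0.05). This was TRBJ1-2, lower in 4 of 4 pairs, at 3.18%, 3.38%, 4.63% and 3.75% against 4.13%, 3.91%, 4.82% and 4.43% (log2 change −0.21, SE 0.0716, adjusted p = 0.125). Of 21 TRBV, 0 passed (0%), with 6 at an unadjusted p under 0.05. TRBV3 had the largest change: 3.61%, 3.22%, 3.73% and 3.93% in STAT3koPD-1ko against 2.69%, 2.38%, 2.71% and 1.97% in WT. These values did not overlap, with a log2 change of 0.56 (SE 0.180, adjusted p = 0.102). The STAT3koPD-1ko and WT libraries before HCT had 2.58% and 2.60% of TRBV3.

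TRBV2 was at 2.67%, 2.66%, 1.63% and 1.42% against 2.37%, 1.71%, 1.23% and 1.104%, higher in 4 of 4 pairs (log2 change 0.37, adjusted p = 0.102). TRBV14 was lower in 4 of 4 pairs, at 5.69%, 6.70%, 3.77% and 1.88% against 7.18%, 6.95%, 4.18% and 4.55% (log2 change −0.44, adjusted p = 0.102). For TRBV2 and TRBV14 both liver libraries were above both gut libraries in each genotype. The genotype-by-tissue term passed for 0 of 46 TRAV (0%; 1 unadjusted in limma) and 0 of 21 TRBV (0%; 2 unadjusted). Of 139 pairs of TRBV and TRBJ, 0 passed (0%; 13 unadjusted). TRBV14 with TRBJ1-4 was at 0.211% ± 0.133 in STAT3koPD-1ko against 0.487% ± 0.131 in WT, and TRBV15 with TRBJ1-4 was at 0.332% ± 0.0801 against 0.149% ± 0.0386 (log2 change −1.001 and 0.79, adjusted p = 0.0621 for both). TRBV15 with TRBJ2-2 and TRBV1 with TRBJ1-4 had log2 changes of 0.85 and 0.75 (adjusted p = 0.198 for both).

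Some TRBV bind superantigens, proteins of endogenous retroviruses that BALB/c cells present far better than C57BL/6 cells do. TRBV26, TRBV12-1, TRBV12-2, TRBV15 and TRBV16 were listed for this, and together they held 30.6%, 31.6%, 46.2% and 44.0% in STAT3koPD-1ko against 34.2%, 36.2%, 46.2% and 48.6% in WT. The sum was lower in 4 of 4 pairs by a mean of −3.18 percentage points, with next to no difference in gut 1 and a mean of −4.23 points without that pair and −2.71 without gut 2 or liver 2 (exact two-sided permutation test within pairs, p = 0.125, the smallest that 4 pairs allow). None of the 5 members passed: TRBV26 had a log2 change of −0.27 (limma adjusted p = 0.236), TRBV12-1 −0.37 and TRBV12-2 −0.33 (0.102 for both), TRBV15 0.25 (0.269) and TRBV16 −0.17 (0.441). In usage weighted by frequency, TRBV15 thus differed in sign from the other members. With each clonotype counted once, the log2 change of TRBV12-1 was 0.0226.

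**Figure D4:**
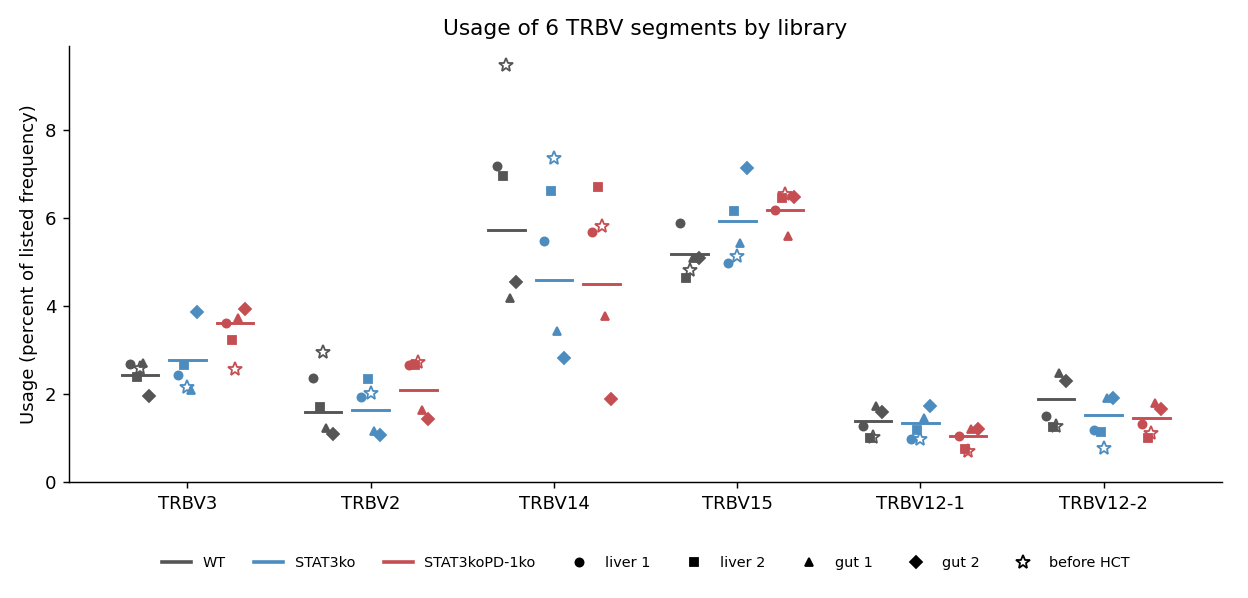
Usage of 6 TRBV segments in percent of listed frequency (y axis) for each CD4 TCRB library, with colours for genotype, symbols for tissue and number, bars for the mean of 4 and stars for the library before HCT. TRBV3 is at 3.22% to 3.93% in STAT3koPD-1ko and 1.97% to 2.71% in WT; in the others the groups overlap.

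The repertoires of STAT3koPD-1ko cells were less diverse in every pair. Diversity was expressed as an effective number of clonotypes, derived from Shannon entropy, which counts rare clonotypes less and equals the plain count when all are equally frequent. In TCRA it was 4404, 4533, 7451 and 2801 in the STAT3koPD-1ko liver 1, liver 2, gut 1 and gut 2 libraries, against 6335, 7498, 10880 and 5455 in WT. In TCRB it was 4839, 5221, 8594 and 1139 against 7228, 9460, 14630 and 4320. As compared with its WT partner, each STAT3koPD-1ko library was thus lower, by a mean log2 ratio of −0.69 ± 0.203 in TCRA and −1.03 ± 0.606 in TCRB (SD, n = 4 pairs). The exact two-sided permutation test within pairs gave p = 0.125 for both, the smallest value that 4 pairs allow, and 0.150 after adjustment over 6 measures of diversity. Without gut number 1 the mean log2 ratios were −0.74 and −1.12, and without gut number 2 −0.60 and −0.73, with an exact permutation p of 0.25, the smallest that 3 pairs allow. The groups as a whole overlapped, since the libraries of 1 genotype also differed among themselves, with gut 1 highest and gut 2 lowest in both genotypes and both chains.

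The number of listed clonotypes was also lower in 4 of 4 pairs of both chains, 13840 ± 5579 against 20750 ± 6178 in TCRA and 13580 ± 7432 against 20470 ± 8855 in TCRB. The 100 most frequent clonotypes held more, at 13.9%, 15.0%, 13.8% and 18.4% against 13.7%, 12.3%, 9.63% and 13.0% in TCRA. In TCRB they held 13.8%, 14.2%, 15.3% and 33.6% against 13.6%, 11.1%, 8.09% and 13.5%. These shares hardly differed in liver 1 and differed most in gut 2. In TCRB, STAT3koPD-1ko gut 2 stood far above the other 3 libraries of its genotype. Clonality, which runs from 0 for clonotypes of equal frequency to 1 for a single clone, was higher in 4 of 4 pairs, by 0.00851 ± 0.00309 in TCRA and 0.0278 ± 0.0187 in TCRB. The inverse Simpson number was lower in 4 of 4 pairs, with log2 ratios of −0.60 and −0.93 (exact permutation p = 0.125 for each of these measures). The listed share of reads was higher in STAT3koPD-1ko in 3 of 4 pairs of both chains (exact permutation p = 0.625 and 0.375). Depth and cell number behind each library are unknown, and their part in the lower diversity was not tested.

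Before HCT, the effective number was 2661 in the STAT3koPD-1ko library and 3557 in the WT library in TCRA, and 2796 against 3916 in TCRB. The effective number was therefore also lower in this single STAT3koPD-1ko library, but its clonality was not higher, at 0.132 against 0.141 in TCRA and 0.130 against 0.134 in TCRB. The STAT3ko library had effective numbers of 3760 and 3845. On day 6 the STAT3ko libraries were at 4313, 6336, 9224 and 2727 in TCRA, which was below WT in each block and below STAT3koPD-1ko in liver 1 and gut 2. In TCRB they were at 4719, 7369, 10930 and 1531, again below WT in each block, but below STAT3koPD-1ko in liver 1 alone.

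**Figure D5:**
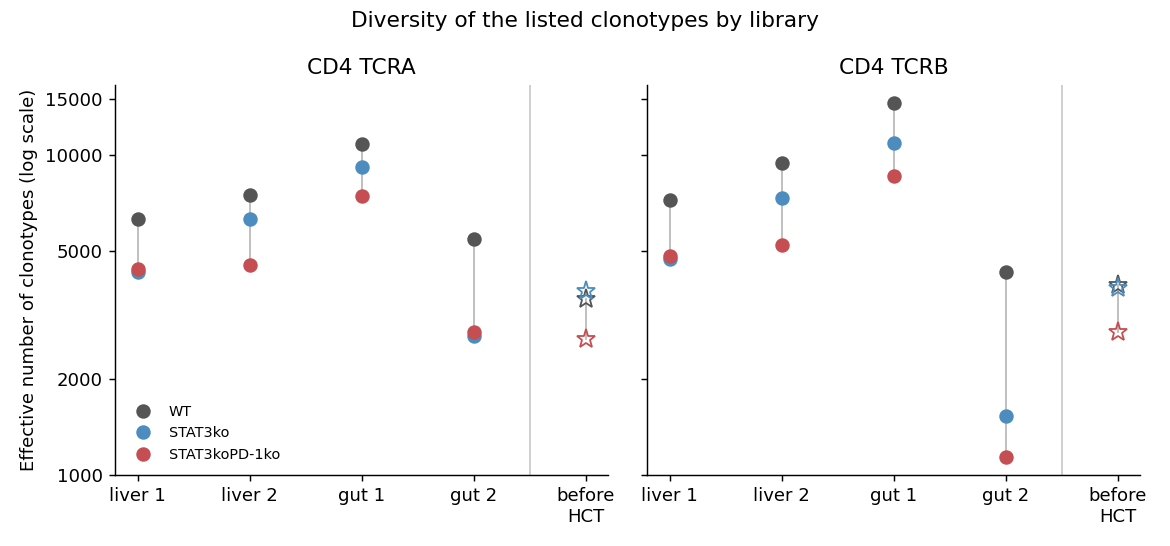
Effective number of clonotypes (y axis, log scale) of each CD4 library, TCRA left and TCRB right, with a grey line from WT to STAT3koPD-1ko of the same tissue and number and stars for the libraries before HCT. STAT3koPD-1ko lies below WT in each column, and lowest in TCRB gut 2 at 1139.

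Mean CDR3 lengths differed by less than the spread between pairs. Lengths were taken from clonotypes whose CDR3 ran from C to F or W with 8 to 20 residues. These held 96.3% to 97.4% of listed TCRA frequency in STAT3koPD-1ko and 96.4% to 97% in WT. In TCRB they held 71.2% to 92.3% and 72.4% to 89.6%, and the rest entered the segment, diversity and clonotype results only. The mean was 13.4 residues in both genotypes in TCRA and 13.7 in both in TCRB (differences 0.00844 ± 0.0256 and 0.0497 ± 0.0594 residues, exact permutation p = 0.875 and 0.250). The TCRA difference was −0.00413 residues without liver number 2. The TCRB difference was 0.0261 residues without liver number 2 and 0.0690 without liver number 1. Both differences turned negative with each clonotype counted once. Of 8 TCRA length classes, 0 passed in limma (0%; 0 unadjusted). Of these, 10 residues and 13 residues differed one way in all 4 pairs, with log2 changes of 0.24 and −0.04 (adjusted p = 0.770 for both). Of 7 TCRB classes, 1 passed (14.3%): a CDR3 of 16 residues was at 6.14%, 5.55%, 6.18% and 3.31% in STAT3koPD-1ko against 5.24%, 4.502%, 5.01% and 1.79% in WT (log2 change 0.42, SE 0.106, adjusted p = 0.0341). Gut 2 was low in both genotypes. The call was lost in 14 of 18 alternatives, among them without gut number 1. With each clonotype counted once the log2 change was −0.0164, and 1 other length class was called, lower in STAT3koPD-1ko.

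Residues were counted in the middle of the CDR3, without its first and last 4, in the same clonotypes as the lengths. A CDR3 that ends in leucine, as the germline end of TRAJ7 does, was thus left out of the residues but not of TRAJ usage. In TCRA, 3 of 20 residues passed (15%), and all 3 were lower in STAT3koPD-1ko in 4 of 4 pairs. Methionine made up 1.36%, 1.29%, 1.24% and 1.43% of the residues in STAT3koPD-1ko against 1.56%, 1.54%, 1.61% and 1.56% in WT (log2 change −0.22, SE 0.0442, limma adjusted p = 0.00794). Tryptophan was at 0.891%, 0.970%, 0.976% and 1.04% against 1.09%, 1.24%, 1.18% and 1.13% (log2 change −0.23, SE 0.0571, adjusted p = 0.0177). Neither residue overlapped between the groups. Leucine was at 1.28%, 1.32%, 1.33% and 1.11% against 1.49%, 1.42%, 1.53% and 1.30% (log2 change −0.17, SE 0.0313, adjusted p = 0.00713). Without gut number 1 of all genotypes, leucine and methionine passed (limma adjusted p = 0.0322 for both) and tryptophan did not (0.0577). Without the block for tissue and number, leucine did not pass (limma adjusted p = 0.0785).

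The differences in these residues were largely found in clonotypes of a few TRAJ. The shares below are of the net difference and can add to more than 100%, as TRAJ that went the other way count against it. TRAJ9, whose CDR3 part reads SNMGYKLTF and holds a methionine, gave 76.3% of the whole difference in methionine, and TRAJ23, which reads NYNQGKLIF and holds none, gave 23.2%. TRAJ22, which reads SSGSWQLIF, gave 76.8% of that in tryptophan. TRAJ18, which reads DRGSALGRLHF, gave 43.0% of that in leucine, and TRAJ2 and TRAJ24 gave 19.96% and 17.6%. Of the TRAJ named here, TRAJ9 alone passed the usage test, and TRAJ2 was not tested. The residue and TRAJ results thus draw largely on the same reads and are not independent. In TCRB, 0 of 20 residues passed (0%; 1 unadjusted in limma). Methionine there was lower in 4 of 4 pairs, at 0.114% ± 0.0797 against 0.157% ± 0.0731 (adjusted p = 0.121). The mean hydropathy of the CDR3 middle on the Kyte-Doolittle scale, on which lower values are more polar, was lower in 4 of 4 pairs of both chains, by −0.0241 ± 0.0107 in TCRA and −0.0329 ± 0.0204 in TCRB (exact permutation p = 0.125 for both, adjusted over 5 CDR3 measures 0.625 and 0.313). Net charge, a hydrophobic pair at positions 6 and 7 and the number of bases between V and J gave exact permutation p from 0.125 to 0.875.

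Chains with the segments of invariant T cells, counted by segment and not by CDR3 sequence, were rare. Invariant natural killer T (iNKT) cells, which see lipids on CD1d, use TRAV11 with TRAJ18. The share of TRAV11 or TRAV11D with TRAJ18 was 0.00723%, 0.0207% and 0.0206% in STAT3koPD-1ko liver 1, liver 2 and gut 1 and was listed at 0 in gut 2. In WT it was at 0.0397%, 0.0769%, 0.0488% and 0.0166%, above its partner in 4 of 4 pairs (exact two-sided permutation test on log2(percent + 0.001), p = 0.125). The mean log2 difference was −2.37. It was −2.76 without gut number 1 and −1.78 without gut number 2, where the STAT3koPD-1ko value of 0 makes the difference depend on the pseudocount. Before HCT it was at 0.000539% in STAT3koPD-1ko and 0.00557% in WT. TRAV1 with TRAJ33, the chain of mucosal-associated invariant T cells, was at most 0.00394% in any of the 8 libraries and listed at 0 in 3 of 4 STAT3koPD-1ko libraries and in WT gut 2. In liver 1 it was at 0.00315% in STAT3koPD-1ko and 0.00266% in WT.

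No single clonotype passed the test between the genotypes. Clonotypes listed in at least 8 of the 12 day 6 libraries were tested, and 0 of 5279 passed in TCRA (0%; 517 at an unadjusted p under 0.05 in limma) and 0 of 1743 in TCRB (0%; 169 unadjusted). The most frequent clonotype of a library held 0.348% to 0.743% of listed TCRA frequency in STAT3koPD-1ko and 0.338% to 0.470% in WT. Their nucleotide sequences are shown to let the J-derived part of each be seen beside the rest of the CDR3. The clonotypes with TRAJ56 and TRAJ7 can be compared with the germline segments above. Capitals mark the bases at the 3′ end that match the germline TRAJ without a break, up to the last codon of the CDR3, and the first 4 lines are from STAT3koPD-1ko liver 1, liver 2, gut 1 and gut 2, the last 4 from WT in the same order.
TRAV7-4 TRAJ27: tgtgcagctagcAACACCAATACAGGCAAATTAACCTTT
TRAV10N TRAJ43: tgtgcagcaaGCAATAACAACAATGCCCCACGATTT
TRAV7D-5 TRAJ56: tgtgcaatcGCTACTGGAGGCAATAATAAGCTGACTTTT
TRAV7-5 TRAJ31: tgtgcagtgAGCAATAACAGAATCTTCTTT
TRAV7-6 TRAJ23: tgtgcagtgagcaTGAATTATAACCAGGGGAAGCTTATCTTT
TRAV19 TRAJ42: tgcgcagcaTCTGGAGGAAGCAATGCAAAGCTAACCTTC
TRAV14N-3 TRAJ7: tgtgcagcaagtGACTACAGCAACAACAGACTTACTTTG
TRAV7-1 TRAJ27: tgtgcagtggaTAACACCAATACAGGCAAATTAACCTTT

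Of these 8 clonotypes, 3 were far more frequent in 1 library than in the rest, and the other 5 were at 0.0483% or more in each of the 8 libraries. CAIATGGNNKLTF with TRAV7D-5 and TRAJ56 was at 0.743% in STAT3koPD-1ko gut 1, at 0.0132% and 0.00442% in the liver libraries of that genotype, and was listed at 0 in gut 2. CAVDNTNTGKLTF, with TRAV7-1 and TRAJ27, was at 0.360% in WT gut 2 and at most 0.00388% in the other WT libraries. In STAT3koPD-1ko it was at 0.0728% in liver 2 and at most 0.0104% in the other libraries. CAASDYSNNRLTL, with TRAV14N-3 and TRAJ7, was found at 0.165%, 0.170%, 0.470% and 0.352% in WT and at 0.0587%, 0.0897%, 0.227% and 0.334% in STAT3koPD-1ko, and so was frequent in both genotypes (log2 change −0.87, SE 0.756, limma adjusted p = 0.758). The TRAV10N with TRAJ43 clonotype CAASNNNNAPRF was at 0.246%, 0.376%, 0.172% and 0.0640% in STAT3koPD-1ko against 0.0617%, 0.138%, 0.143% and 0.0545% in WT (log2 change 0.98, SE 0.771, adjusted p = 0.723).

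The largest clonotype changes that ran one way in 4 of 4 pairs did not pass the test either. In TCRA, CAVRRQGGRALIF (TRAV7-5, TRAJ15), a clonotype of 16 residues (TRAV7-5, TRAJ52) and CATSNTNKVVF (TRAV14D-2, TRAJ34) had log2 changes of 3.99, 3.73 and 3.47 (limma adjusted p = 0.312, 0.299 and 0.295). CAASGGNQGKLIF (TRAV14D-2, TRAJ23) was listed at 0 in all 4 STAT3koPD-1ko libraries and at 0.0727%, 0.0228%, 0.0200% and 0.00597% in WT (adjusted p = 0.248). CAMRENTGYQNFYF and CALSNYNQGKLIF had log2 changes of −3.83 and −3.74 (adjusted p = 0.248 and 0.295). In TCRB, the 3 largest increases were those of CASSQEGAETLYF (TRBV5), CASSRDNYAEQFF (TRBV13-3) and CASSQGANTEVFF (TRBV5), with log2 changes of 3.32, 2.83 and 2.81, and the 3 largest decreases those of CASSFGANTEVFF (TRBV16), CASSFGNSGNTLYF (TRBV14) and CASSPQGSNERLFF (TRBV5), with −4.72, −3.87 and −3.78 (adjusted p = 0.2 to 0.362).

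The most frequent TCRB entry of 7 of the 8 libraries was YAEQFF with TRBV21 and TRBJ2-1, at 0.432% to 1.54%, which has no V-derived start and matches germline TRBJ2-1 over its whole length. Its log2 change was 0.01 (SE 0.717, limma adjusted p = 0.994). In STAT3koPD-1ko gut 1 the most frequent TCRB entry had 34 residues, with TRBV26 and TRBJ2-7, at 0.671%. Neither entry was counted in the lengths and residues. Overlap between partners of the 2 genotypes was 22.7%, 26.9%, 37.3% and 29.1% in TCRA and 7.82%, 9.85%, 14.9% and 10.2% in TCRB. Between libraries of the same genotype, overlap in TCRA ranged from 20.7% to 35.8% in STAT3koPD-1ko and from 30.1% to 49.8% in WT, and in TCRB from 5.005% to 23.5% and from 10.96% to 37.4%.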

How the data were processed

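The authors prepared TCR alpha and beta libraries from RNA of sorted cells with a SMARTer mouse TCR kit, sequenced them on a MiSeq, called clonotypes with miXCR and merged the libraries with VDJTools. Genome build mm10 is given per the labels. The study's methods name 2 batches, each pooled from 3 mice, but do not tie them to the numbers of the samples, so batch was not tested apart from number. The deposited values are read fractions, which the authors formed within each library before joining 18 libraries and keeping clonotypes found in at least 2. The 15 library columns of each table were used, and the other 3 libraries are not analysed here. The deposited occurrence column is a whole-number count of libraries and served to check the join. The files give no read counts, so no counting interval or detection limit is given, and a value of 0 is called listed at 0. Nothing says whether the samples of a group came from separate donors, so p-values measure the spread between these samples, which may be technical.

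Fractions were divided by the listed share and summed by segment, pair, CDR3 length and residue. Linear models for features were fitted by limma (version 3.58.1, R 4.3.3) to log2(percent + 0.1), which understates the change of rare features, with genotype and a block for each of 4 combinations of tissue and number (12 libraries, 6 residual degrees of freedom). Minimum mean usage was 0.5% for segments and lengths and 0.2% for pairs; clonotypes were tested on log2(frequency in ppm + 10). Benjamini-Hochberg adjustment was made within table and family, at 0.05. Library measures were compared by exact two-sided permutation within 4 pairs (16 arrangements). Named were all features past the threshold and, for V, J and pairs, the 4 largest changes (3 for lengths and residues without a call, and for clonotypes in each direction) that ran one way in all 4 pairs, besides the superantigen and invariant lists and the top clonotype of each library. The members and lists were chosen with earlier results of these data known. All 193 V and J names were found in GENCODE M21, and J sequences were read from its transcripts, in the frame in which the listed clonotypes end. In TCRA the V end lay at or past the J start in 14.3% of clonotypes, so the bases between V and J are approximate. The alternatives were no block, fewer libraries, other filters, pseudocounts and weights, and leaving out each library.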

Additional observations from a re-analysis of the deposited data

Results flagged for a closer look

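Of 128 groups of 4 libraries tested for a library far from the other 3, 8 were flagged, where chance flags about 1 in 20. Of these, 7 concerned gut number 2, the libraries with the lowest listed share. STAT3koPD-1ko gut 2 in TCRB had an inverse Simpson number of 495.5, against 2124 to 2240 in the other 3 libraries of its genotype, and its 100 most frequent clonotypes held 33.6% of listed frequency, against 13.8% to 15.3%. Its mean CDR3 length was 13.56 residues, against 13.75 to 13.78. WT gut 2 had a mean hydropathy of the TCRA CDR3 middle of −1.36 (others −1.31 to −1.296), 1.66 bases between V and J in TCRA (others 1.94 to 1.99) and 6.95 in TCRB (others 8.02 to 8.21), and 37.6% of its TCRA CDR3 had 13 residues (others 33.8% to 34.3%). TRAJ56 usage in STAT3koPD-1ko gut 1 was 3.71%, against 2.70% to 2.77% in the other 3, and that library held the TRAJ56 clonotype at 0.743%.

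The mean TCRA CDR3 length was higher in STAT3koPD-1ko in both liver pairs, by a mean of 0.0241 residues, and lower in both gut pairs, by −0.00908 and −0.00537. This difference between the tissues was not tested.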

How the results depend on the processing

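Of 290 alternative values for the main comparisons, 242 kept their direction and their side of the threshold or stayed near the main value (within 1.5 times for a count), and of 596 for the named features 511 kept direction and side. The 290 include exact permutation tests of library measures, whose p within pairs cannot fall below 0.125. Those tests could change direction but could not pass the threshold, so for them a kept side is no sign of stability. The alternatives without gut number 2, liver number 1 or gut number 1 of all genotypes were chosen after seeing the data. For the 9 TRAJ called, the count was 5 with only the STAT3koPD-1ko and WT libraries, 15 with each clonotype counted once and 2 without gut number 1, and 4 to 12 when 1 library was left out, with the lowest count, 4, without WT gut 1. TRAJ56 and TRAJ53 were called in 18 of 18 alternatives, TRAJ57 and TRAJ58 in 17, TRAJ9 in 15, TRAJ7 in 10, TRAJ12 in 9, TRAJ13 in 8 and TRAJ48 in 7, but with each clonotype counted once the log2 change of each was smaller, from 0.62 to 0.15 for TRAJ56 and from 0.48 to 0.15 for TRAJ53.

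Same-numbered libraries of different genotypes did not deviate together throughout. Of 12 correlations of their deviations in V and J usage, 7 were over 0.1 (range −0.17 to 0.50), 6 of them in gut, so the pairing is by number only. Without the replicate block 10 TRAJ were called, 9 of them those of the fit with the block, the TCRB length class was lost (0), and 2 TCRA residues were called, leucine being lost (limma adjusted p = 0.0785).

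With each clonotype counted once, 8 TCRA residues (3 otherwise), 3 TCRA and 9 TCRB V-J pairs and 2 TRBV were called (0 otherwise), and the difference in mean CDR3 length turned to −0.0306 in TCRA and −0.0243 in TCRB. The log2 changes of TRAV21/DV12 (−0.17), TRBV12-1 (0.0226), TCRA length 13 (0.0344) and TCRB length 16 (−0.0164) also turned. Without gut number 2, 1 TRAV, 3 TCRB V-J pairs, 1 TCRB residue and 1 TCRB clonotype were called. With only the STAT3koPD-1ko and WT libraries, 1 TCRA V-J pair and 1 TCRB residue were called, and with a pseudocount of 0.5, 1 TCRA V-J pair. Without the usage filter, 1 TRBV and 2 TCRB V-J pairs were called, and with clonotypes in at least 3 libraries, 1 TRBV. The TCRB length class was lost (0 called) with those 2 settings, with the smaller set of libraries and without gut number 1, liver number 1 or gut number 2. The cause of these changes was not tested.

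Leaving out 1 library gave 0 to 1 for TRAV, for V-J pairs of both chains, for TRBJ, for TCRB lengths, residues and clonotypes, and for the genotype-by-tissue term in TRAV, and 0 to 2 for that term in TRBV. Leaving out 1 pair gave differences in mean TCRA CDR3 length from −0.00413, without liver 2, to 0.0143. The depth behind the fractions is unknown, so rare clonotypes listed at 0 cannot be read as absent.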
